A study of Homo sapiens with 8 samples.

Results

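Chromatin accessibility at the genes of AP-1 and at related immediate early genes was examined in HEK293T cells with wild-type or mutant EZH2. The genes were FOS, FOSB, FOSL1 and FOSL2 of the FOS family, JUN, JUNB and JUND of the JUN family, ATF3 of the ATF family, and EGR1 and IER2, which respond to the same signals but are not part of AP-1. They are 10 of the 19962 protein-coding genes on chromosomes 1 to 22 and X in GENCODE 44, and were chosen by name. For each gene, all peaks in the gene body and within 10 kb of an annotated transcription start site were taken from each library, and peaks within 1 kb of a start site were counted as promoter peaks. Where several peaks met that rule, the one with the highest -log10 p stood for the promoter.

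HEK293T is a human embryonic kidney cell line. The 4 stable lines compared here were made by lentiviral transfer and blasticidin selection, and each was profiled by ATAC-Seq in 2 libraries. In ATAC-Seq the Tn5 transposase cuts open chromatin, and the cut fragments are sequenced. One line received wild-type EZH2 (WT) and the others EZH2 with Y641F, with A677G or with both H689A and F667I (H689A/F667I). EZH2 is the subunit of Polycomb repressive complex 2 that sets H3K27me3, a histone mark of repressed genes. The study treats Y641F and A677G as EZH2 GOF mutants and H689A/F667I as the EZH2 LOF mutant. Each line also has its endogenous EZH2, the selection was meant to give monoclonal populations, and all lines were kept in medium with fetal bovine serum. No stimulus that would induce immediate early genes is given in the labels.

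AP-1 is a dimer of basic leucine zipper proteins. JUN proteins pair with each other or with FOS proteins and bind the AP-1 site TGACTCA, and ATF proteins in such dimers bind the related CRE, TGACGTCA. Immediate early genes are transcribed within minutes of a growth factor or stress signal from promoters that are already open, without new protein synthesis. Serum response factor at CArG boxes and CREB or ATF factors at CRE sites are the known entry points of MAP kinase signals at such promoters. EGR1 is a zinc finger factor of this class, and IER2 is a nuclear protein whose gene responds in the same way.

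The data were peak lists with no read counts, so depth is unknown, and the yield of a library is given here by how many peaks it had. There were 64923 and 62514 in WT, 26350 and 36598 in Y641F, 38016 and 46358 in A677G, while H689A/F667I had 47840 and 48755. The 4 GOF libraries were therefore also the 4 with the fewest peaks. A split of the GOF libraries from those of WT and LOF cannot be told apart from a split by yield. Both Y641F libraries had fewer peaks than any library of another line, and both WT libraries had more. A difference between Y641F and WT therefore cannot be told apart from a difference in yield either. Of all protein-coding genes, 73.4% to 73.9% had a promoter peak in the WT libraries and 60.7% to 71.3% in the mutants. Over the 11814 promoters with a peak in all 8 libraries, the median promoter peak was 1190 and 1202 bp wide in WT and 730 to 1014 bp in the mutants, which is a shift in log2 width of -0.57 in Y641F, -0.37 in A677G and -0.25 in the LOF mutant. The median fold enrichment shifted by -0.10, -0.04 and -0.02 in the same order. All log2 differences given for the genes are relative to these shifts. Promoters of 8 of 9 kidney and HEK293 markers were open in all 8 libraries, and PAX8 was open in 2. Of 10 markers of other cell types, 7 were closed in every library, including PTPRC, ALB and PECAM1, while MYOD1 was open in 8, GFAP in 7 and HBB in 2.

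Promoter sequences of 9 of the 10 genes were found in RefSeq (GRCh38.p14), and FOSL1 had no entry. The 250 bases upstream of the start site are shown for 6 genes. Those of EGR1, JUN and FOS lay inside a peak in full in all 8 libraries, and those of JUNB in part, by 112 to 195 bases. Those of FOSB and JUND held no base in a peak in some libraries. Capitals mark the TGACG core of the CRE (CGTCA on the other strand), the full CRE, the TGACATCA site known from the JUN promoter, CArG boxes and TATAAA. EGR1 lies at chr5:138465229-138465478 on the plus strand, JUN at chr1:58784048-58784297 on the minus strand, JUNB at chr19:12791236-12791485 on the plus strand, JUND at chr19:18281623-18281872 on the minus strand, FOS at chr14:75278578-75278827 on the plus strand and FOSB at chr19:45467746-45467995 on the plus strand.
EGR1: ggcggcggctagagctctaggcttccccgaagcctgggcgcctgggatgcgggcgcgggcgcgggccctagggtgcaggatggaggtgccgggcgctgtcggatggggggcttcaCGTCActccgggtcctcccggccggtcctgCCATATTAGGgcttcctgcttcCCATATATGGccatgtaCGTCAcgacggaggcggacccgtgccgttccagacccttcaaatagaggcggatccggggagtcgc
JUN: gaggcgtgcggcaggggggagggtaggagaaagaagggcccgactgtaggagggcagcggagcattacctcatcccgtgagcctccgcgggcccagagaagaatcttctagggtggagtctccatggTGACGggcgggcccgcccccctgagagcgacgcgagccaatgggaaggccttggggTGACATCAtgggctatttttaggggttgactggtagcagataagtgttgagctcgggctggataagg
JUNB: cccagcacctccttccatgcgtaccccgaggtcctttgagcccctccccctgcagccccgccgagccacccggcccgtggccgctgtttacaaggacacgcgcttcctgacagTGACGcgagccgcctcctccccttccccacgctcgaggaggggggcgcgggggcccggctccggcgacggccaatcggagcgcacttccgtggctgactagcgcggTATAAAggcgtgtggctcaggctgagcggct
JUND: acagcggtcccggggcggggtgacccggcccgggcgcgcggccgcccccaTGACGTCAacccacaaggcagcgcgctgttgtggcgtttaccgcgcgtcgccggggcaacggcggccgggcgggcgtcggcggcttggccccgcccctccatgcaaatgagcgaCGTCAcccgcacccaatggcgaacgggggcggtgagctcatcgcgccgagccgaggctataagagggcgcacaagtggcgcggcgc
FOS: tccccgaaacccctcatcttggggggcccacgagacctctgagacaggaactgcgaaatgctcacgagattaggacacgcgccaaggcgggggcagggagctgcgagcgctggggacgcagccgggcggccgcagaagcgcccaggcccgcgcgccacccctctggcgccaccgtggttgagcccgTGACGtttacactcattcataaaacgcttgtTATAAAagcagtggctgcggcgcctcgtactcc
FOSB: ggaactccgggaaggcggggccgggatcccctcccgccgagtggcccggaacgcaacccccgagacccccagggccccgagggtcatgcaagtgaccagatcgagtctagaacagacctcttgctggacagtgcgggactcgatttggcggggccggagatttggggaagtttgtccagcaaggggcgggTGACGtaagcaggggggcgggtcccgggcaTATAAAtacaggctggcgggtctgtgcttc

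The windows share the CRE core TGACG more than they share an AP-1 site. On either strand, TGACG was found in 8 of the 9 genes, against 21.2% of 35116 RefSeq promoters. The full CRE, which holds 2 overlapping cores, was found in JUND alone among them and in 1.65% of all promoters. TGACTCA was found in none of the 9 genes and in 4.2% of all promoters. The site TGACATCA occurred in JUN, from -67 to -60 relative to the start site, and in ATF3, against 2.37% of all promoters. EGR1 had 2 CArG boxes, CCATATTAGG from -105 to -96 and CCATATATGG from -83 to -74, and CArG boxes were found in 1.16% of all promoters. TATAAA was found in FOS, FOSB, JUNB and ATF3, against 10.7% of all promoters. The GC box GGGCGG was present in 7 of the 9 genes against 42.6%, CCAAT in 4 against 32%, and the EGR site GCGTGGGCG in none against 0.72%. The GC content of the windows ran from 44.8% to 74.8% with a median of 67%, and the median of all promoters was 58%. ATF3 was matched to 2 windows, which lay away from its canonical start site and held no base in a peak in any library. Its matches, its lack of TGACG and the lowest GC content, 44.8%, therefore do not describe its promoter peak examined below. These are matches of letters and not measured binding.

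All 10 promoters were open in 7 of the 8 libraries. The exception was Y641F replicate 1, the library with the fewest peaks, in which FOSL1 had no promoter peak. The fold enrichment of a promoter peak is the mean ratio of pileup to local background over that peak, as MACS2 gave it. Across the genes it ranged from 2.06 for EGR1 in Y641F replicate 1 to 4.48 for FOSL1 in H689A/F667I replicate 2. The library medians over the 11814 promoters open in all 8 libraries, which do not include FOSL1, ranged from 4.02 to 4.42. All but 1 of the 79 promoter peaks lay below that median of their library, so by mean fold the promoters were of low enrichment in all 4 lines. The -log10 p did not rank all of them low. In WT, ATF3 had 16.1 and 15.1 and EGR1 18.9 and 19.7, above the library medians of 12.9 and 12.5. FOSB lay above the median in WT replicate 1 only, and the other genes lay below it in both WT libraries. In a bulk library, a weaker peak in every cell and a peak in fewer cells cannot be told apart.

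**Figure D1:**
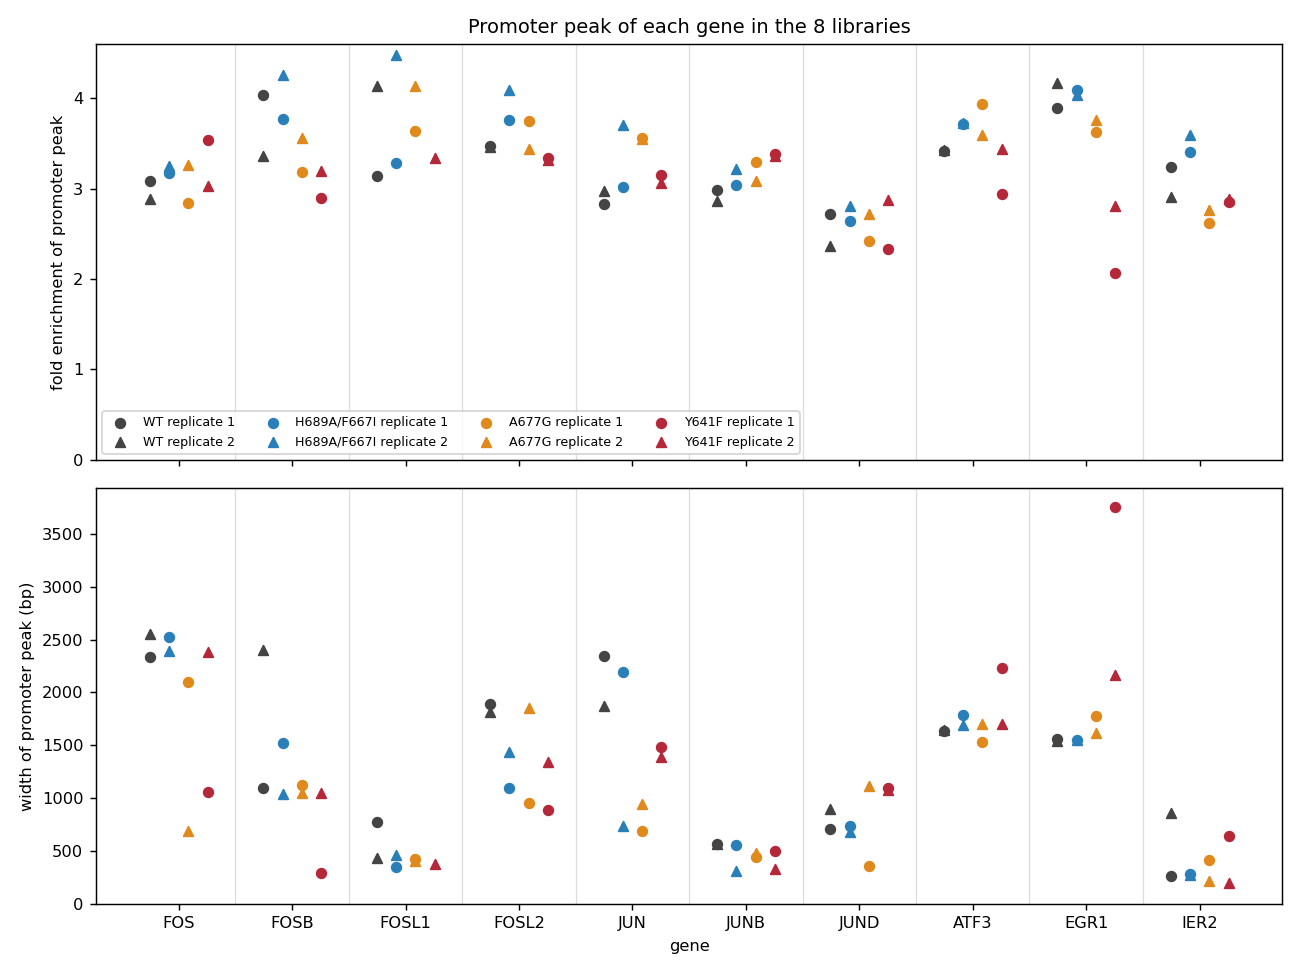
Fold enrichment (upper panel, no unit) and width in bp (lower panel) of the promoter peak of each gene. Each point is 1 library, colour gives the line and shape the replicate. The Y641F points of EGR1 lie lowest in fold (2.06 and 2.80) and highest in width (3757 and 2167 bp), and FOSL1 has no point for Y641F replicate 1.

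Whether promoter accessibility differed between lines was tested with limma over the 11814 promoters open in all 8 libraries, with Benjamini-Hochberg adjustment over all of them. FOSL1 could not enter, so 9 of the 10 genes were tested. In Y641F against WT, EGR1 alone among the 9 passed the threshold of 0.05 in fold enrichment, where 2.41% of all promoters did. The median log2 difference of the 9 genes was 0.04, and that of all promoters was 0.02. Y641F had the libraries with the fewest peaks and WT those with the most, so mutation and yield cannot be told apart here. None of the 9 genes passed in A677G against WT or in H689A/F667I against WT, where 0% of all promoters passed in limma. At an unadjusted p under 0.05, limma gave 1672 promoters and 1 of the 9 genes in A677G, and 1019 promoters and 3 of the 9 genes in H689A/F667I. With both GOF mutants set against WT and LOF together, 0.372% of promoters passed and none of the 9 genes did. In that contrast limma gave 2186 promoters and 4 of the 9 genes at an unadjusted p under 0.05.

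The same fit was made on the -log10 p and on the width of the promoter peak. By -log10 p, JUND alone passed in Y641F against WT, where 2.81% of promoters passed. None of the 9 genes passed in A677G (0.203% of promoters), in H689A/F667I (0% of promoters, 1058 at an unadjusted p under 0.05) or in the GOF mutants against WT and LOF (0.914% of promoters). By width none of the 9 genes passed in limma, where 0.339% of promoters passed in Y641F, 0.0423% in A677G, 0% (619 at an unadjusted p under 0.05) in H689A/F667I and 0.288% in the GOF mutants against WT and LOF. At an unadjusted p under 0.05 in limma, 2 of the 9 genes passed by width in Y641F, as did 2256 of all 11814 promoters. None of the 9 genes did in A677G, where 1151 promoters did, or in H689A/F667I.

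EGR1 had the clearest difference. The gene lies at chr5:138465479-138469303 on the plus strand and has 2 exons. In the WT libraries the promoter peak had a fold enrichment of 3.89 and 4.16, and in H689A/F667I 4.09 and 4.03. The A677G libraries had 3.62 and 3.76, and the Y641F libraries had 2.06 and 2.80. Both Y641F values lay below all 6 others, and both A677G values lay below the 4 values of WT and H689A/F667I. The log2 difference from WT was -0.64 (SE 0.12, n = 2 libraries per line) in Y641F, with an adjusted p of 0.0311 in limma, a ratio of 0.642. In A677G it was -0.08 (SE 0.12) with an adjusted p of 0.792, and in H689A/F667I it was 0.04 (SE 0.12) with an adjusted p of 0.957. The direct contrast of Y641F with A677G gave -0.56 (SE 0.12) with an adjusted p of 0.139 in limma, so the difference between the GOF mutants missed the threshold. For both GOF mutants against WT and LOF the difference was -0.38 (SE 0.08) with an adjusted p of 0.0661 in limma.

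The lower mean enrichment of EGR1 in Y641F went with a longer peak. The peak was 1557 and 1536 bp wide in WT and 1551 and 1547 bp in H689A/F667I. It was 1773 and 1619 bp in A677G, and 3757 and 2167 bp in Y641F. All 8 peaks began at nearly the same place, between -1516 and -1329 bp from the start site, so the difference lay at the downstream end. That end was at 60 and 62 bp past the start site in WT and at 78 and 84 bp in H689A/F667I. It lay at 332 and 102 bp in A677G and at 2427 and 703 bp in Y641F, inside the transcribed body of the gene. A start site of another annotated gene also lay within 1 kb of the stretch that these peaks spanned. The 250 bases printed above, with both CArG boxes and both CRE cores, were covered in full in all 8 libraries. The log2 difference in width from WT was 1.45 (SE 0.32) in Y641F, with an adjusted p of 0.160 in limma. Since fold enrichment is a mean over the peak, it was also multiplied by width and summed over the promoter peaks, a measure chosen after seeing the data. On that scale the direction turned, with a log2 difference of 0.79 (SE 0.22) and an adjusted p of 0.120 in limma. The fold call also missed the threshold without WT replicate 1, WT replicate 2 or Y641F replicate 1, with adjusted p of 0.134, 0.149 and 0.133 in limma.

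A longer promoter peak in Y641F was uncommon. The promoter peak was wider in both Y641F libraries than in both WT libraries for 3 of the 9 genes, EGR1, ATF3 and JUND, a count made after seeing the data, and for 0.872% of all promoters tested. For JUND a different stretch stood for the promoter, past the start site in Y641F and over it in WT, so the same peak did not lengthen. In 74.9% of all promoters it was narrower in both Y641F libraries. Of the 98 promoters that fell in fold in Y641F, 11 had the wider peak and 57 the narrower one. None of the 187 promoters that rose had the wider peak, and 170 had the narrower one.

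**Figure D2:**
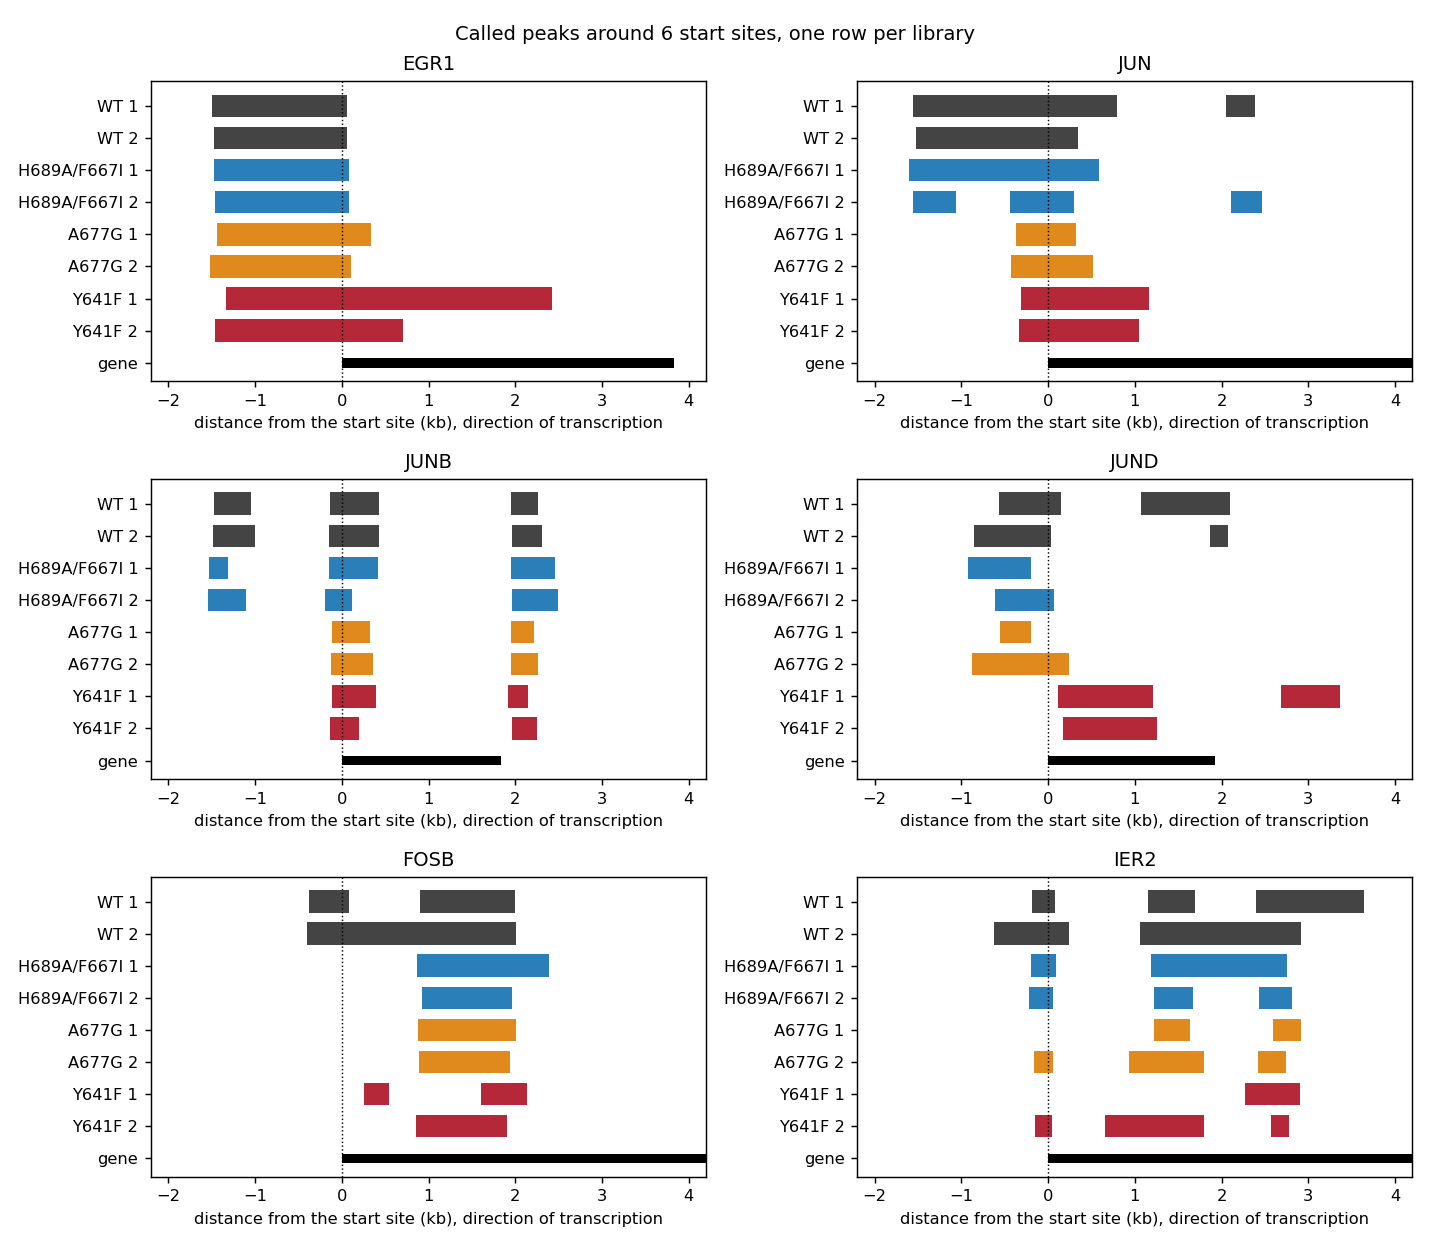
Called peaks (bars) of each library around the start sites of EGR1, JUN, JUNB, JUND, FOSB and IER2. The horizontal axis gives the distance from the start site (dotted line) in kb in the direction of transcription, and the black bar is the gene. The EGR1 peak ends close to the start site in WT and H689A/F667I and at 703 and 2427 bp in Y641F, while the JUN peak begins at -1551 and -1526 bp in WT and within 431 bp of the start site in all 4 GOF libraries.

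JUN, the founding member of AP-1, is a gene of 1 exon at chr1:58776845-58784048 on the minus strand. Its promoter peak had a fold enrichment of 2.83 and 2.97 in WT, 3.01 and 3.71 in H689A/F667I, 3.56 and 3.55 in A677G, and 3.15 and 3.06 in Y641F. All 6 mutant values lay above both WT values. The log2 difference was 0.34 (SE 0.10) in A677G, with an adjusted p of 0.189 in limma, and 0.20 and 0.23 in Y641F and H689A/F667I, with adjusted p of 0.263 and 0.565. What differed more was the upstream reach of the peak. It began at -1551 and -1526 bp in WT and at -1606 bp in H689A/F667I replicate 1, but at -314 and -340 bp in Y641F and -368 and -431 bp in A677G. In H689A/F667I replicate 2 the same stretch held 2 separate peaks, from -1552 to -1067 bp and from -436 to 300 bp. Within 2 kb upstream, 1551 and 1526 bp of JUN lay in peaks in WT, 1606 and 922 bp in H689A/F667I, 314 and 340 bp in Y641F and 368 and 431 bp in A677G. The 4 GOF libraries, which also had the fewest peaks, lay below the 4 others with no overlap. The proximal 250 bases, with the TGACATCA site, lay inside a peak in all 8 libraries, so the stretch without a peak was the distal one. Start sites of LINC01135 and of another annotated gene also lay within 1 kb of the stretch that these peaks spanned. With the same number of peaks in each library, which leaves 26350 in each, H689A/F667I replicate 2 fell to 436 bp and the other 7 values stayed the same. With only peaks of a -log10 q from 5 up, H689A/F667I replicate 1 had 0 bp and lay below the 4 GOF libraries, so the separation was lost.

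JUNB, whose product can oppose JUN in some settings, lies at chr19:12791486-12793315 on the plus strand and, like JUN, has 1 exon. The promoter peak had a fold enrichment of 2.98 and 2.86 in WT, 3.04 and 3.22 in H689A/F667I, 3.30 and 3.08 in A677G, and 3.39 and 3.35 in Y641F. The Y641F values lay above all 6 others. The log2 difference in Y641F was 0.31 (SE 0.08), with an adjusted p of 0.0678 in limma, and with the same number of peaks it was 0.30 with an adjusted p of 0.0489. The peak itself was 310 to 570 bp wide and covered the start site in every library. A separate peak lay upstream, at chr19:12789948-12790482, from -1538 to -1004 bp relative to the start site and within HOOK2. It was called in both WT and both H689A/F667I libraries, with a fold of 2.37, 2.21, 2.63 and 2.27. None of the 4 GOF libraries, which had the fewest peaks, held it. Its -log10 p was 4.37, 3.77, 5.17 and 3.71, which is weak, and with the same number of peaks no region near the genes was lost in either GOF mutant. Another peak, which began between 1916 and 1966 bp past the start site and so just beyond the gene's end, was called in all 8 libraries.

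JUND lies at chr19:18279694-18281622 on the minus strand and is a gene of 1 exon. It is the JUN family member that many cell types express without a stimulus. In both WT libraries its promoter peak had the lowest fold enrichment of the set. The values were 2.71 and 2.36 in WT, 2.65 and 2.80 in H689A/F667I, 2.41 and 2.72 in A677G, and 2.33 and 2.88 in Y641F. The lines overlapped in fold. By -log10 p the values were 6.18 and 4.01 in WT, 4.71 and 5.03 in H689A/F667I, 3.84 and 5.67 in A677G, and 5.49 and 6.62 in Y641F. Relative to the library medians the log2 difference in Y641F was 0.91 (SE 0.23), with an adjusted p of 0.0446 in limma. The raw values of WT and Y641F overlapped, so the call rests on the centring, and without centring it was 0.28 with an adjusted p of 0.313 in limma. The call was also lost when any 1 library of WT, Y641F or H689A/F667I was left out, with adjusted p of 0.0523 to 0.369 in limma. The peaks compared were also different stretches. In WT the peak ran from -567 to 144 bp and from -856 to 38 bp around the start site. In Y641F it ran from 111 to 1204 bp and from 177 to 1256 bp, within the gene and past the start site, and the printed window with the CRE held no base in a peak. In the same window, 250 bases lay in peaks in both WT libraries, 57 and 250 in the H689A/F667I libraries, and 51 and 250 in those of A677G.

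FOS, a classic serum response gene whose product pairs with JUN, lies at chr14:75278826-75282230 on the plus strand. Its promoter peak had a fold enrichment of 3.08 and 2.89 in WT, 3.18 and 3.25 in H689A/F667I, 2.84 and 3.26 in A677G, and 3.54 and 3.02 in Y641F. The lines overlapped, and the adjusted p of the 3 mutants against WT in limma was 0.228 to 0.813. Peak width ranged from 691 to 2551 bp. The narrow ones were those of Y641F replicate 1, at 1061 bp, and A677G replicate 2, at 691 bp, whose upstream part from -1706 to -1044 bp was called as a peak of its own. Within 2 kb upstream, 1811 and 1784 bp lay in peaks in WT, 1773 and 1834 bp in H689A/F667I, 1721 and 1231 bp in A677G, and 463 and 1761 bp in Y641F. The 4 GOF values lay below the 4 others, though 1761 bp in Y641F replicate 2 was close to the lowest of the others, 1773 bp.

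FOSB lies at chr19:45467995-45475179 on the plus strand. In both WT libraries its start site and all 250 upstream bases lay inside a peak, and in none of the 6 mutant libraries did any of those bases. In WT replicate 1 a peak ran from -375 to 87 bp with a fold of 2.45 and a -log10 p of 4.70, and in WT replicate 2 a single peak ran from -400 to 2003 bp. The mutants kept the peak inside the gene, which began between 855 and 919 bp past the start site in 5 of them, and Y641F replicate 1 had 2 short peaks from 259 to 548 bp and from 1603 to 2135 bp. When all lists were cut to 26350 peaks, the start site stayed in a peak in WT replicate 2 and in no other library. The fold of the peak that stood for the promoter was 4.04 and 3.36 in WT, 3.77 and 4.25 in H689A/F667I, 3.18 and 3.55 in A677G, and 2.89 and 3.19 in Y641F. Both Y641F values lay below both WT values, with a log2 difference of -0.17 (SE 0.11) and an adjusted p of 0.398 in limma.

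FOSL1 and FOSL2 encode the FOS-related antigens, which lack the strong transactivation domain of FOS. FOSL1, at chr11:65892049-65900573 on the minus strand, had a fold enrichment of 3.14 and 4.14 in WT, 3.34 in Y641F replicate 2, 3.28 and 4.48 in H689A/F667I, and 3.63 and 4.14 in A677G. Its promoter peak was short, from 350 to 775 bp, and covered the start site wherever it was called. The values of the 4 lines overlapped. FOSL2, at chr2:28392448-28417317 on the plus strand, had 3.47 and 3.46 in WT, 3.76 and 4.09 in H689A/F667I, 3.75 and 3.44 in A677G, and 3.34 and 3.31 in Y641F. As deposited, the Y641F values lay below WT and the H689A/F667I values above it. Relative to the library shifts no mutant was below WT, and the log2 differences were 0.20 (SE 0.09) in H689A/F667I, 0.09 in A677G and 0.04 in Y641F, with adjusted p of 0.567, 0.685 and 0.816 in limma. The FOSL2 peak was 1889 and 1819 bp wide in WT and 1853 bp in A677G replicate 2, and narrowest in Y641F replicate 1, at 889 bp.

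ATF3, a stress-induced member of the ATF family, lies at chr1:212565334-212620777 on the plus strand. Its promoter peak lay at the canonical start site at position 212608761, inside the annotated span of the longer transcripts. The 2 RefSeq windows matched to it lay elsewhere, at chr1:212565157-212565406 and chr1:212614768-212615017, and held no base in a peak in any library. The fold was 3.42 and 3.42 in WT, 3.72 and 3.73 in H689A/F667I, 3.94 and 3.60 in A677G, and 2.94 and 3.44 in Y641F. Values in A677G and H689A/F667I lay above WT, with adjusted p of 0.411 and 0.684 in limma. The peak was 1630 and 1647 bp wide in WT, 1787 and 1696 bp in H689A/F667I, 1535 and 1698 bp in A677G, and 2232 and 1700 bp in Y641F. In Y641F it began closer to the start site than in any other library, at -428 and -478 bp, and ended farther downstream, at 1803 and 1221 bp. The log2 difference in width was 0.82 (SE 0.22) with an adjusted p of 0.183 in limma.

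IER2 lies at chr19:13150411-13154911 on the plus strand, beside the start of STX10. A peak over its start site was called in 6 of 8 libraries, and not in Y641F replicate 1 or A677G replicate 1. In these 2 libraries the peak that stood for the promoter lay farther down, from 2269 to 2907 bp and from 1224 to 1634 bp, near other annotated start sites. The fold was 3.23 and 2.91 in WT, 3.40 and 3.59 in H689A/F667I, 2.62 and 2.77 in A677G, and 2.85 and 2.89 in Y641F. All 4 GOF values lay below the 4 others as deposited. Relative to the library shifts, the log2 difference from WT was 0.21 (SE 0.09) in H689A/F667I, -0.14 in A677G and 0.01 in Y641F, with adjusted p of 0.534, 0.496 and 0.972 in limma, so Y641F was not below WT on that scale. The log2 difference of the GOF mutants from WT and LOF was -0.17 (SE 0.06), with an adjusted p of 0.173 in limma, and by -log10 p it was -0.53 (SE 0.14), with an adjusted p of 0.0807.

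The start sites were then compared as single positions, a comparison chosen after seeing the data. The canonical start site lay inside a peak for all 10 genes in both WT libraries, for 8 and 9 in H689A/F667I, 7 and 9 in A677G, and 6 and 8 in Y641F. Over all protein-coding genes the shares were 64.3% and 63.6% in WT and 48.6% to 60.8% in the mutants. It was covered in both WT libraries and in neither Y641F library for FOSB and JUND, 2 of 10, against 9.81% of all genes covered in both WT libraries. The count was 1 of 10 in A677G, against 3.97%, and 1 of 10 in H689A/F667I, against 2.48%, and FOSB was that gene in both. With the same number of peaks in each library it was 0 in all 3 mutants, since WT replicate 1 then had no peak at the FOSB start site and neither WT library had one at that of JUND. The start sites of FOS, FOSL2, JUN, JUNB, ATF3 and EGR1 were covered in all 8 libraries.

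Bases in peaks were summed on each side of the start site, also after seeing the data, for the 11377 genes that could be compared, which include 9 of the 10 genes and not FOSL1. Within 3 kb downstream, EGR1 had 61 and 63 bp in WT, 79 and 85 bp in H689A/F667I, 333 and 103 bp in A677G and 2428 and 704 bp in Y641F. The 4 GOF libraries lay above the 4 others. EGR1 alone of the 9 genes had that pattern, against 0.0439% of all genes, or 5 of 11377, the others being CHRAC1, HES4, RFC4 and UBE2S. A677G replicate 2, with 103 bp, was close to the highest of the 4 others, 85 bp. ATF3 and EGR1, 2 of 9, were higher downstream in both Y641F than in both WT libraries, against 1.22% of all genes. EGR1 alone was so in A677G, against 2.48%, and in H689A/F667I, against 4.51%. FOSB, FOSL2 and JUNB, 3 of 9, were lower downstream in both Y641F libraries, against 67.3% of all genes.

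Within 2 kb upstream of the start site, FOS, JUN, JUNB and IER2, 4 of 9, had fewer bases in peaks in all 4 GOF libraries than in all 4 WT and LOF libraries, against 9.66% of all genes. The GOF libraries were also the 4 with the fewest peaks, so mutation and yield cannot be told apart here. In the other 5 genes the libraries overlapped. For JUNB the values were 564 and 625 bp in WT, 370 and 632 bp in H689A/F667I, 112 and 133 bp in Y641F and 112 and 123 bp in A677G, and they include the separate upstream peak. For IER2 they were 187 and 619 bp in WT, 191 and 219 bp in H689A/F667I, 0 and 151 bp in Y641F and 0 and 161 bp in A677G. With the same number of peaks in each library, 7 of the genes could be compared and the pattern held for JUN and IER2, with 431 bp in A677G replicate 2 beside 436 bp in H689A/F667I replicate 2 for JUN. The median over all genes compared was also lower in the mutants, at 371 to 483 bp against 549 and 550 bp in WT.

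**Figure D3:**
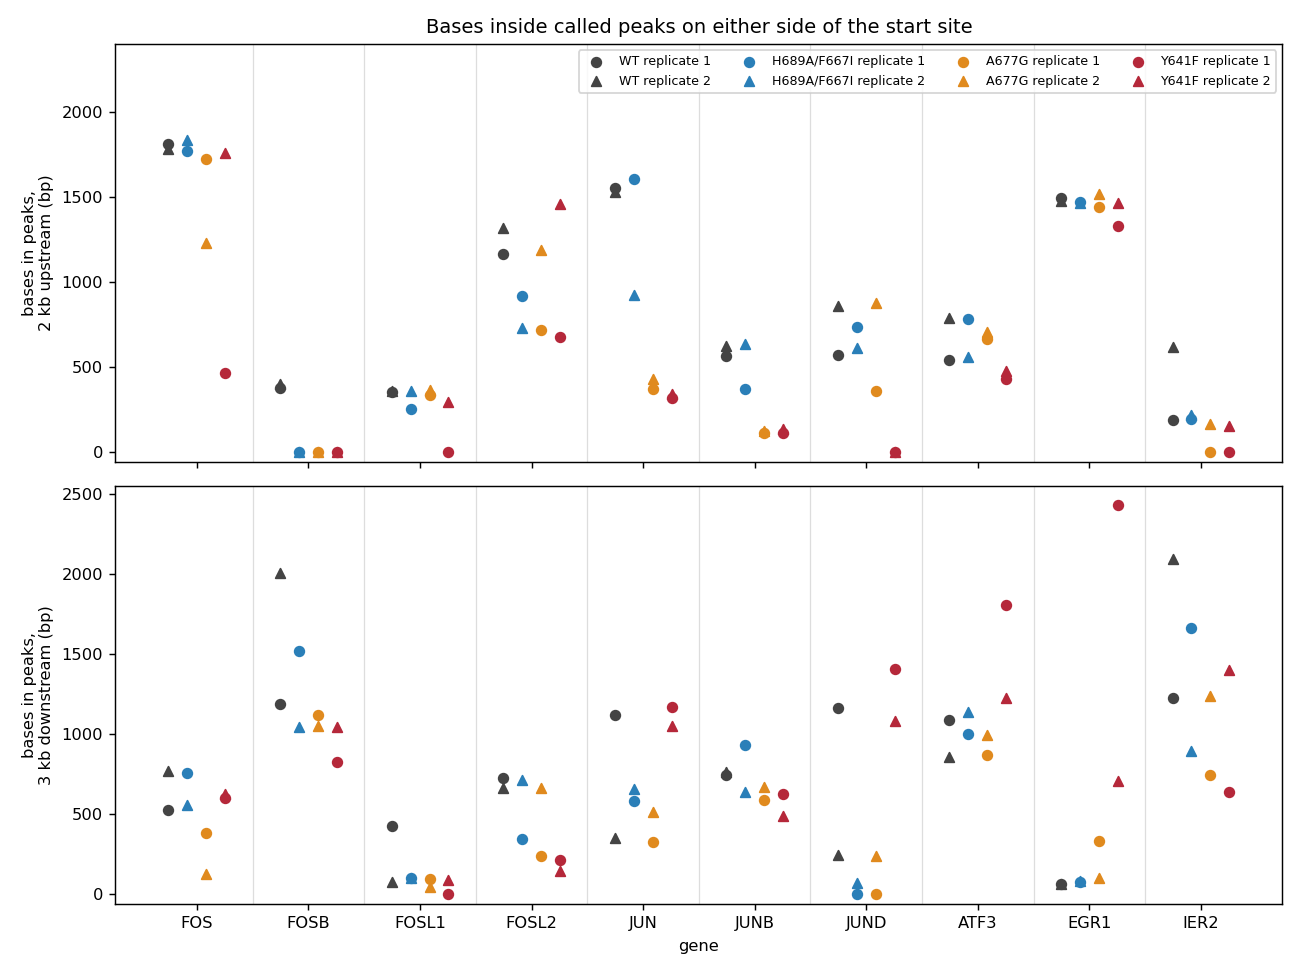
Bases in called peaks within 2 kb upstream (upper panel) and 3 kb downstream (lower panel) of the canonical start site, in bp, for the 10 genes. Each point is 1 library, colour gives the line and shape the replicate. Upstream of JUN the 4 GOF points lie between 314 and 431 bp and the others between 922 and 1606 bp, and downstream of EGR1 the Y641F points lie at 704 and 2428 bp.

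Peaks of all libraries were merged into regions to compare the surroundings of the genes. Near the 10 genes there were 25 regions open in at least 2 libraries, 11 of them promoter regions, and 12 were open in all 8 libraries. Of the 20 that were open in both WT libraries, 2 were open in neither Y641F library, where 35.3% of such regions were lost across the genome. A677G lost 1 of 20, against 20.8%, and H689A/F667I lost none, against 14.2%. Both lost regions lay outside JUNB but within 10 kb of its start site. They were the upstream one described above, within HOOK2, and one at chr19:12796558-12796901 that overlaps HOOK2 and PRDX2. The latter began 5072 bp past the JUNB start site, and A677G replicate 1 and H689A/F667I replicate 1 kept it. Only 1 region, 8370 bp past the JUND start site in IQCN, was closed in both WT libraries. It was gained in none of the mutants, against 8.77% in Y641F, 13.0% in A677G and 22.4% in the LOF mutant, and was open in A677G replicate 2 and H689A/F667I replicate 1.

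Of the 14 regions outside the promoters, 3 were open in all 8 libraries. Of the 9 among them that were open in both WT libraries, 5 and 3 had no peak in the Y641F libraries, 1 and 2 in those of A677G, and 0 and 2 in those of H689A/F667I. No share over the genome was taken for single libraries, and the Y641F libraries had the fewest peaks, so these counts are description only. Within introns of ATF3, a region at chr1:212566602-212567870 was open in 7 libraries and one at chr1:212595871-212597066 in 6, and Y641F replicate 1 lacked both. A region 10371 bp past the FOSB start, at the start of ERCC1, was open in all 8. Its fold was 5.07 and 5.11 in WT, 5.16 and 4.28 in H689A/F667I, 4.93 and 4.85 in A677G, but 2.99 and 3.02 in Y641F. Both Y641F values lay below the other 6, and no test was run on single regions. Near FOSL1, a region at the start of CCDC85B was open in 7 libraries. The 2 regions beyond the end of FOS, at 7566 and 9138 bp past its start, were open in 2 and 4 libraries and in neither Y641F library. In all, the surroundings of the 10 genes held 26 and 22 peaks in WT, 23 and 22 in H689A/F667I, 19 and 22 in A677G, and 17 and 19 in Y641F. These peaks covered 22767 and 23249 bp in WT and 13387 to 18922 bp in the 6 mutant libraries. Every mutant library also had fewer peaks over the genome than either WT library, and no genome share was set beside these sums.

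**Figure D4:**
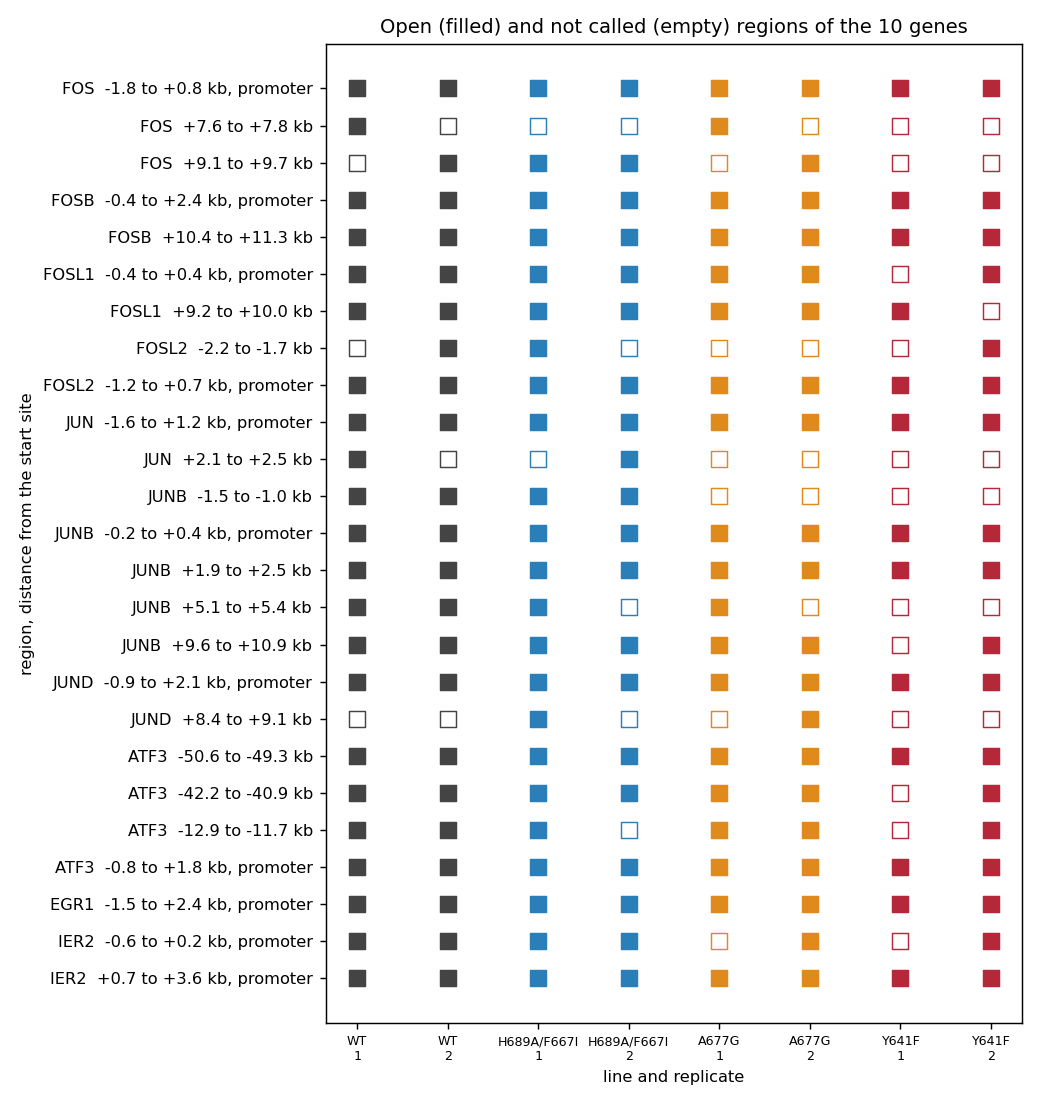
The 25 merged regions of the 10 genes (vertical axis, position relative to the start site in kb) in the 8 libraries (horizontal axis). A filled square is a region with a called peak and an empty square is one without. The JUNB region from -1538 to -1004 bp is filled in the 4 WT and H689A/F667I libraries and empty in the 4 GOF libraries.

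Genes linked to AP-1 were counted from 3 lists. Of 23 other bZIP genes that can pair with AP-1 proteins or share their sites, 18 were tested and none passed in fold in Y641F, with 4 at an unadjusted p under 0.05 in limma and a median log2 difference of 0.08. Of 21 kinases and factors upstream, 18 were tested and none passed, with 2 at an unadjusted p under 0.05 and a median of 0.07. Of 32 other immediate early genes, 26 were tested and 2 rose in mean fold, with a median of 0.12, against 2.41% of all promoters called and a median of 0.02. At an unadjusted p under 0.05 in limma there were 8 of these 26 genes, and 2635 of all 11814 promoters. In A677G, H689A/F667I and the GOF contrast, no gene of the 3 lists passed in fold in limma, and at an unadjusted p under 0.05 there were 1 to 8 genes per list. Of all 11814 promoters, 1672, 1019 and 2186 had such a p in the same order. By -log10 p in limma, 4 of the 26 other immediate early genes rose in Y641F (IER5, DUSP6, DUSP1 and BTG2) and 1 of the 18 upstream genes fell (MAP2K2), against 2.81% of all promoters called. In the GOF contrast IER5 and DUSP6 rose by that measure, against 0.914%.

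The 2 immediate early genes that rose in mean fold in Y641F were IER5, a regulator of the heat shock response, and DUSP6, the phosphatase that switches off ERK. The IER5 promoter peak had a fold of 3.18 and 3.09 in WT, 4.55 and 3.92 in H689A/F667I, 4.44 and 4.06 in A677G, and 4.39 and 4.89 in Y641F. Its log2 difference was 0.67 (SE 0.10) in Y641F, with an adjusted p of 0.0294 in limma. All 6 mutant values lay above WT, and all 6 mutant peaks were narrower, at 610 to 1014 bp against 2154 and 2129 bp. The DUSP6 peak had 3.35 and 3.26 in WT, 3.81 and 3.57 in H689A/F667I, 3.75 and 3.40 in A677G, and 4.19 and 4.96 in Y641F. Its log2 difference was 0.57 (SE 0.10) in Y641F, with an adjusted p of 0.0311 in limma. This peak was 742 and 823 bp wide in Y641F against 2558 and 2553 bp in WT. In both genes a higher mean fold thus went with a narrower peak, the reverse of EGR1. Fold times width, which turned the direction for EGR1, is not given for these 2 genes, so the rise is one of mean fold only. That is the common pattern, since 170 of the 187 promoters that rose in Y641F were narrower in both its libraries.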

How the data were processed

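ATAC-Seq peak lists of 8 libraries were used, 2 for each of 4 HEK293T lines, grouped by sample title. According to the study's methods and processing notes, the authors trimmed reads with Trim Galore (0.6.5), aligned them with BWA (0.7.17) to GRCh38/hg38, removed duplicates and called peaks with MACS2 (2.2.7.1) in each library. In the lists as deposited by the authors, the fold is the mean ratio of pileup to local background over a broad peak, and each peak has a -log10 p and a -log10 q. The score the authors deposited beside them, 10 times the -log10 q, was not used. The lowest -log10 q was 1.00. A promoter without a called peak can still hold signal. The transposase shift, the removal of mitochondrial reads and the depth are not given in the sources used here, and the labels' protocol calls the libraries CUT&Tag in 1 sentence. Fold, -log10 p and width depend on how a broad peak was joined, so 1 long peak can have a lower mean fold than a short one.

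Peaks on chromosomes 1 to 22 and X were matched to GENCODE 44 (GRCh38), with an overlap of at least 1 bp. Log2 values of promoter peaks were centred on each library's median and fitted with limma 3.58.1 (R 4.3.3), with a mean per line over all 8 libraries and Benjamini-Hochberg adjustment at 0.05. A further marker of other cell types that was listed is not reported here. DiffBind, used by the study, needs read counts, which were not analysed here. All 10 genes are named, and genes of the related lists only where they passed. The genes and lists were chosen with earlier results of these data known, and measures said to be chosen after seeing the data were added later still. Regions were peaks merged across libraries and kept if open in at least 2. Alternatives were no centring, quantile normalisation, no filter on closed promoters, a 500 bp promoter window, a width-weighted mean fold, only peaks with a -log10 q from 5 up, lists cut to an equal number of peaks (26350), a distance of 5 kb, a cover of 50% of a region, the replicate block and leaving out each library. Replicate numbers were not used as pairs. Fits that leave out a library of a line assume that the other one varies like the rest.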

Additional observations from a re-analysis of the deposited data

Results flagged for a closer look

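As deposited, before the library shifts were taken out, the fold enrichment of 2 genes lay on opposite sides of WT in different mutants. For FOSL2, both Y641F libraries lay below both WT libraries and both H689A/F667I libraries above them, and the mean of Y641F minus that of H689A/F667I was -0.600 in fold. For IER2 the same held for Y641F, with a difference of -0.632, and for A677G, with a difference of -0.803. These differences between mutants were not tested. Relative to the library shifts Y641F was not below WT for either gene, with log2 differences of 0.04 for FOSL2 and 0.01 for IER2, and A677G was at -0.14 for IER2.

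Of 54 sets of 4 libraries (the GOF libraries, or WT with LOF, for a measure of 1 gene), 4 held a library far from the others, and chance alone gives about 1 in 20. These were the FOSB peak of 290 bp in Y641F replicate 1, the JUNB peak of 310 bp in H689A/F667I replicate 2, the JUND peak of 358 bp in A677G replicate 1 and the IER2 peak of 859 bp in WT replicate 2. All 4 were widths.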

How the results depend on the processing

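The EGR1 fold call in Y641F kept its direction but lost the threshold with no filter on closed promoters (log2 -0.61, adjusted p of 0.0685 in limma). With fold times width the difference reversed, to 0.79 in Y641F and 0.46 in both GOF mutants against WT and LOF. The number of the 9 genes called by fold in Y641F, 1 in the report, was 0 with no filter and with fold times width, 2 with the same number of peaks (EGR1 and JUNB, of 7 that could be tested), and 0 to 1 when each library was left out. In the GOF contrast it was 1 without centring and 0 to 1 when each library was left out. By -log10 p in Y641F, 1 in the report, it was 4 without centring, 0 with quantile normalisation and 0 with the replicate block (JUND, adjusted p of 0.0575 in limma), and 0 to 1 when each library was left out. Without centring it was 2 in A677G and 4 in the GOF contrast. The 4 genes called in Y641F without centring did not include JUND. They included EGR1, which fell (log2 -1.19, adjusted p of 0.000963 in limma). By width it was 0 to 2 when each library was left out, in Y641F and in the GOF contrast, with 2 reached without Y641F replicate 2. Deviations of libraries with the same replicate number were almost uncorrelated (-0.02 to 0.06), so the numbers share only a name, and the block changed no other call on the 9 genes. At a -log10 q from 5 up, only ATF3 had a promoter peak in all 8 libraries, so the number called by fold in Y641F, 0, says nothing of EGR1 or the others.

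Counts of start sites and regions moved more. At a -log10 q from 5 up, 1 gene could enter the counts of covered bases and 5 start sites lay in a peak in both WT libraries, so the counts at that setting rest on those few genes. Start sites left without a peak were 1 in Y641F and 0 in H689A/F667I at a -log10 q from 5 up, and 0 in all 3 mutants with the same number of peaks. Leaving out 1 library gave 2 to 4 in Y641F, 1 to 3 in A677G and 1 to 2 in H689A/F667I, with the highest counts when the second library of the mutant was left out. Genes with more covered bases downstream were 1 in Y641F and 0 in A677G and H689A/F667I at a -log10 q from 5 up, 4 in Y641F with the same number of peaks, and 2 to 4, 1 to 2 and 2 to 3 when each library was left out. In the GOF contrast at a -log10 q from 5 up, 0 genes were lower upstream and 0 higher downstream, and 2 were lower upstream with the same number of peaks. Lost regions were 6, 6 and 2 in Y641F, A677G and H689A/F667I with a cover of 50% of the region, 0 in Y641F and A677G with the same number of peaks, and 1 in Y641F within 5 kb. Leaving out 1 library gave 3 to 7 (7 without Y641F replicate 2) in Y641F, 2 each time in A677G and 0 to 2 in H689A/F667I. Gained regions were 2 in Y641F and 1 in A677G with the same number of peaks, 1 in Y641F with a cover of 50%, and 0 to 1 in A677G and H689A/F667I when each library was left out. The cause of these changes was not tested. Depth is unknown, and regions without a called peak may be open below the authors' threshold.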
